A study of Homo sapiens with 2 samples.

Results

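The genes described here are 43 genes of double-strand break and Fanconi repair, taken by gene symbol from the 51640 symbols of the deposited tables: damage kinases and their adaptors, homologous recombination genes, Fanconi anaemia genes and end-joining genes. All 43 had a single row with an accepted estimate in both tables. RNA came from HCT116, an epithelial line established from a human colon cancer, in 2 libraries of a single untreated group that the submitters call biological replicates and name PJ and PF. The cells were grown in serum-supplemented DMEM to near confluence, and what the library names stand for is not stated in the labels. The normal colon samples that the study set against them are not analysed here. HCT116 is known for a shortened intronic repeat in MRE11A that disturbs splicing of its transcript, which gene-level values cannot show. With 1 library on each side, differences between PJ and PF have no replicate check, and no p-value was computed.

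A broken chromosome is sensed by the kinases ATM and ATR, which call a halt to the cell cycle through CHEK2 and CHEK1 and mark the chromatin around the break. It is then either rejoined end to end, by Ku, the kinase encoded by PRKDC, and the ligase complex of XRCC4 and LIG4, or resected and copied from the sister chromatid by BRCA1, BRCA2 and the strand exchange genes. The Fanconi pathway handles cross-links between the DNA strands: a core complex attaches ubiquitin to FANCD2 and FANCI, and USP1 removes it. Many of these genes are transcribed most in dividing cells, in S phase.

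The values are FPKM, fragments per kilobase of transcript scaled to a library's mapped fragments, so levels may be compared between genes of a library, while a comparison between libraries depends on the scaling. Each has a deposited lower and upper 95% bound, which covers the estimate within a library and not variation between cultures. The median distance from the middle of that interval to either bound was 7.44% of the estimate in PJ and 8.17% in PF over the 43 genes. For 11 of them the estimate lay outside its own bounds in at least 1 library. These were ATR, TOPBP1, MDC1, RAD51C, WRN, FANCC, FANCD2, XRCC4, XRCC5, XRCC6 and PRKDC. Sequencing depth is unknown, as no fragment totals are held here. Over symbols that reached 1 FPKM in both, the median ratio of PJ to PF was 1.19, or 0.25 on the log2 scale, and differences are given here both as deposited and relative to this shift. The cells carried 6 of 8 epithelial markers at 1 FPKM or above in both, with VIL1 and LGALS4 under it. Of 7 fibroblast markers COL1A1 alone passed, and none of 7 immune or 5 endothelial markers did; the immune list summed to 0.985 FPKM in PJ and 0.996 in PF, with MS4A1 listed at 0 in PJ.

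Nearly the whole repair set was expressed in HCT116. The level of 1 FPKM was reached in both libraries by 42 of the 43 genes, against a background of 27.9% of all symbols and 57.3% of protein-coding symbols. Their levels were ordinary for expressed genes: the median over the 43 was 15.5 FPKM in PJ and 12.7 in PF, and over all protein-coding symbols that passed the same threshold it was 16.4 in PJ and 13.8 in PF. The Ku genes stood far above the rest, and 22 of the 43 reached 10 FPKM in both libraries. The exception at the low end was FANCF, which encodes an adaptor that holds the Fanconi core complex together, at 0.406 FPKM in PJ (bounds 0.303 to 0.510) and 0.757 in PF (0.603 to 0.908). The next lowest gene, FANCM, stood at 2.87 FPKM in PJ and 1.66 in PF.

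**Figure D1:**
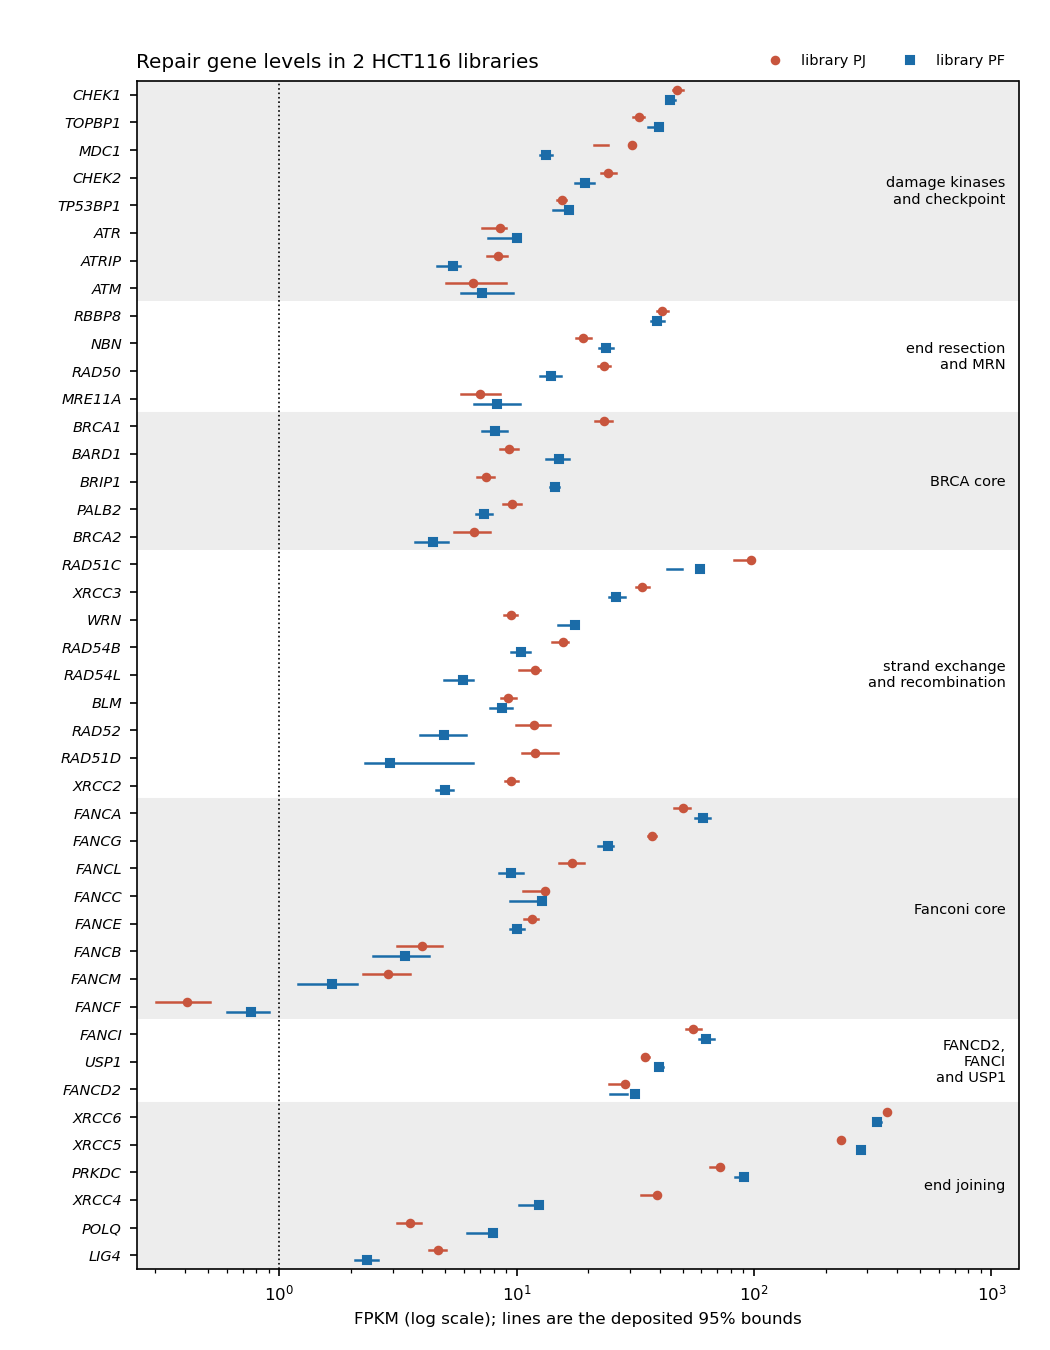
FPKM of the 43 repair genes (log axis) in library PJ (circles) and library PF (squares), grouped by role, with lines for the deposited 95% bounds and a dotted line at 1 FPKM. XRCC6 and XRCC5 lie highest, between 231 and 364 FPKM, and FANCF alone lies left of the dotted line in both libraries.

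Among the damage kinases, the master kinase genes were low and the genes of their downstream effectors higher. ATM was at 6.52 FPKM in PJ (bounds 5.05 to 9.03) and 7.17 in PF (5.84 to 9.63), and ATR at 8.48 in PJ and 10.0 in PF. ATRIP, whose product brings ATR to single-stranded DNA, was at 8.35 FPKM in PJ and 5.41 in PF, so that ATR and ATRIP were level in PJ while ATR led in PF. CHEK1, the kinase gene downstream of ATR, was the highest of the 8 genes, at 47.5 FPKM in PJ (45.7 to 50.2) and 44.1 in PF (42.4 to 46.6), intervals that overlap. CHEK2, the kinase gene downstream of ATM, was at 24.1 FPKM in PJ and 19.3 in PF. CHEK2 has related pseudogenes, of which CHEK2P4 was listed at 3.07 FPKM in PJ and 3.27 in PF. How many fragments of the CHEK2 value they share was not tested, so its uncertainty is not known. TOPBP1, an activator of ATR, was at 32.8 FPKM in PJ and 39.8 in PF, and TP53BP1, which shields ends from resection, at 15.5 in PJ and 16.5 in PF. MDC1, the scaffold that binds marked chromatin, was the one gene of this group more than 2-fold apart, as given below.

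The MRN complex, which holds broken ends and starts their resection, had subunit genes with unequal transcript levels. RAD50, its structural subunit, was at 23.3 FPKM in PJ (22.0 to 24.8) and 13.9 in PF (12.5 to 15.4). NBN, which binds ATM, was at 19.1 FPKM in PJ and 23.7 in PF. MRE11A, the nuclease subunit, was the lowest of the 3 in both libraries, at 6.98 FPKM in PJ (5.80 to 8.49) and 8.22 in PF (6.61 to 10.3). RAD50 was therefore 3.34 times MRE11A in PJ and 1.70 times in PF, whereas the ratio of NBN to MRE11A was 2.74 in PJ and 2.88 in PF. RBBP8, the gene of the resection factor CtIP, was at 41.0 FPKM in PJ and 39.1 in PF, with overlapping bounds.

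The BRCA genes changed order between the libraries. BRCA1 was at 23.2 FPKM in PJ (21.4 to 25.1) and 8.06 in PF (7.11 to 9.12). BARD1, which forms the ubiquitin ligase with BRCA1, went the other way, at 9.27 FPKM in PJ (8.46 to 10.1) and 15.1 in PF (13.3 to 16.7), and so did the BRCA1-bound helicase gene BRIP1, at 7.41 in PJ (6.79 to 8.05) and 14.5 in PF (13.8 to 15.1). BRCA1 thus stood at 2.51 times BARD1 in PJ and 0.533 times in PF, and at 3.14 times BRIP1 in PJ and 0.557 times in PF. PALB2, the bridge between BRCA1 and BRCA2, was at 9.55 FPKM in PJ and 7.27 in PF. BRCA2, which acts on resected single strands, was the lowest of the 5 in both libraries, at 6.58 FPKM in PJ and 4.43 in PF.

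Genes of strand exchange were mostly higher in PJ: 8 of the 9 genes of this group were above their PF value, and 7 of 9 exceeded the median shift. Over all 15736 symbols averaging 1 FPKM or above, 10359 were above their PF value and 7548 exceeded the shift. RAD51C led the group at 97.2 FPKM in PJ and 59.1 in PF, although both estimates lay above their own upper bounds of 92.0 and 49.6. XRCC3, its partner in a complex of strand exchange, was at 33.9 FPKM in PJ and 26.3 in PF. XRCC2, which joins RAD51D in another such complex, was at 9.50 FPKM in PJ (8.92 to 10.1) and 4.97 in PF (4.58 to 5.37). The motor protein genes RAD54L and RAD54B, which act in the search for a matching strand, were at 12.0 and 15.7 FPKM in PJ, against 5.92 and 10.4 in PF. Both helicase genes of the RecQ family departed from this pattern: BLM was level, at 9.20 FPKM in PJ and 8.67 in PF, and WRN was lower in PJ, at 9.42 (8.80 to 10.0) against 17.7 in PF (14.9 to 17.5). The WRN estimate in PF lay above its own upper bound.

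The Fanconi core genes ran from the lowest value of the set to well above its median. FANCA, the highest of them, was at 50.003 FPKM in PJ (46.1 to 54.0) and 60.6 in PF (56.4 to 64.9). FANCG, which pairs with FANCA, was at 37.0 FPKM in PJ and 24.2 in PF, and FANCL, the ubiquitin ligase subunit, at 17.1 in PJ (15.1 to 19.2) and 9.48 in PF (8.38 to 10.6). FANCC and FANCE, which bridge the core to FANCD2, differed little: FANCC was at 13.2 FPKM in PJ and 12.7 in PF, and FANCE at 11.5 in PJ and 10.0 in PF. FANCB, a partner of the ligase subunit, was low at 3.998 FPKM in PJ and 3.37 in PF, with overlapping bounds. FANCM, the translocase that anchors the complex on DNA, and FANCF were lower still, as given above, and differed in direction.

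The genes of the ubiquitinated pair and its protease were high, and as deposited they were close between libraries. FANCI was at 55.5 FPKM in PJ and 62.6 in PF, FANCD2 at 28.7 in PJ and 31.6 in PF, and USP1 at 34.6 in PJ (33.8 to 36.1) and 39.6 in PF (38.9 to 41.2). All 3 were slightly below their PF value, and bounds were apart for USP1 alone. Relative to the median shift the log2 ratios were -0.42 for FANCI, -0.38 for FANCD2 and -0.44 for USP1. The ratio of FANCD2 to FANCI was 0.517 in PJ and 0.505 in PF, although both FANCD2 estimates lay above their own upper bounds of 27.8 in PJ and 29.1 in PF. FANCD2 has a related pseudogene row, FANCD2P2, listed at 2.53 FPKM in PJ and 2.11 in PF.

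End joining held the most abundant transcripts. XRCC6 and XRCC5, which encode the 2 subunits of Ku, together made up 39.7% of the summed FPKM of the 43 genes in PJ and 43.4% in PF. XRCC6 was at 364 FPKM in PJ and 331 in PF, and XRCC5 at 231 in PJ and 282 in PF. Their transcripts thus stood at 1.57 to 1 in PJ and 1.17 to 1 in PF. PRKDC, the catalytic subunit recruited by Ku, was at 71.7 FPKM in PJ and 90.5 in PF; its ratio to XRCC5 was 0.310 in PJ and 0.321 in PF. Both PRKDC estimates lay above their upper bounds, 70.3 in PJ and 89.0 in PF. The ligase gene LIG4 was among the lowest of the set at 4.66 FPKM in PJ (4.26 to 5.05) and 2.34 in PF (2.08 to 2.60), below XRCC4, which stabilises the ligase. POLQ, the polymerase of the alternative end-joining route, was at 3.55 FPKM in PJ (3.13 to 3.95) and 7.94 in PF (6.19 to 7.96).

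**Figure D2:**
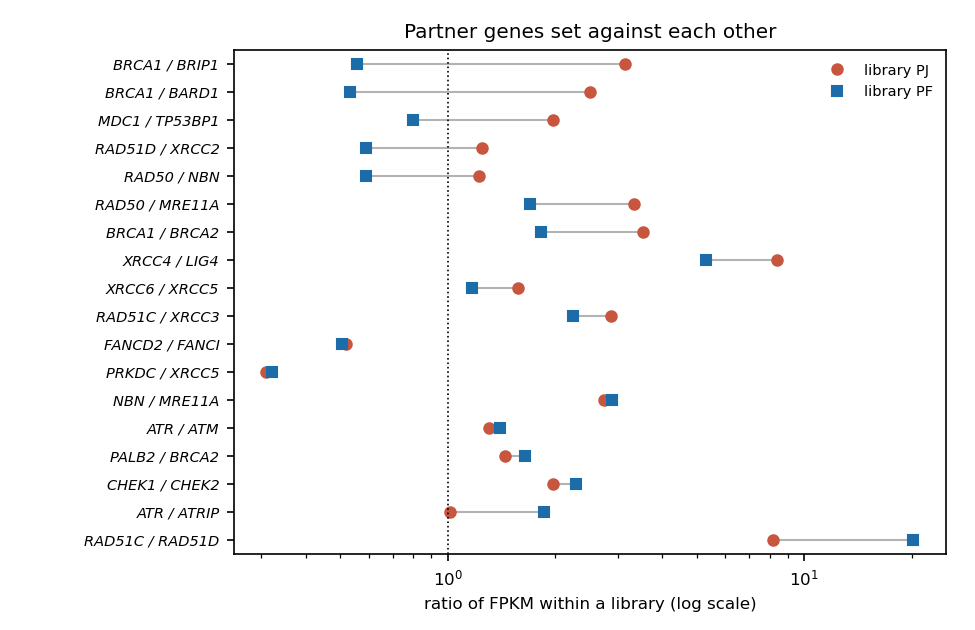
Ratios of FPKM between partner genes within library PJ (circles) and within library PF (squares), on a log axis with a dotted line at a ratio of 1. BRCA1 stood above BRIP1 and BARD1 in PJ and below them in PF, whereas FANCD2 to FANCI (0.517 and 0.505) and PRKDC to XRCC5 (0.310 and 0.321) were almost the same in both.

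Set against each other gene by gene, the libraries differed in both directions, with the largest gaps on the side of PJ. On the log2(FPKM + 1) scale, which understates differences of low genes, 5 of the 42 genes averaging 1 FPKM or above passed 2-fold on the higher side in PJ and 0 on the lower side. The background was 10.4% higher and 5.22% lower over all 15736 symbols with that mean. Relative to the median shift the split was 3 higher and 3 lower, with a background of 5.91% and 8.01%. The shift came from ratios of FPKM without the added 1, so it is not the exact middle of this scale. Of the 15736 symbols, 7548 lay above it and 8188 below. The median log2 ratio of the 42 genes was 0.16, beside 0.22 over all symbols with the same filter, and 26 genes were above their PF value and 16 below. The count on the higher side was thus near the background, and single genes carried the largest differences.

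The 5 genes were RAD51D, XRCC4, BRCA1, MDC1 and RAD52. RAD51D, a strand exchange gene (ENSG00000185379.16; chromosome 17, hg19, 33426811 to 33448541), was at 11.9 FPKM in PJ (10.5 to 15.0) and 2.92 in PF (2.30 to 6.56), a log2 ratio of 1.72. Its PF interval was the widest of the set, averaging 72.9% of the estimate per side, and the lower bound in PJ was 1.60 times the upper bound in PF. XRCC4 (ENSG00000152422.11; chromosome 5, 82373317 to 82649606) was at 39.0 FPKM in PJ and 12.4 in PF, a log2 ratio of 1.58, with both estimates above their upper bounds of 37.3 and 12.2. BRCA1 (ENSG00000012048.14; chromosome 17, 41196312 to 41322290) had a log2 ratio of 1.42, and its bounds were 2.35-fold apart. These 3 genes also passed 2-fold after the shift was taken off. MDC1 (ENSG00000137337.10; chromosome 6, 30667584 to 30685666) was at 30.6 FPKM in PJ, outside its own bounds of 21.2 to 24.1, and 13.2 in PF (12.5 to 14.0), with a log2 ratio of 1.15 that became 0.90 relative to the shift. RAD52 (ENSG00000002016.11; chromosome 12, 1021243 to 1100356), whose product anneals single strands, was at 11.8 FPKM in PJ (9.90 to 13.8) and 4.93 in PF (3.91 to 6.14), with a log2 ratio of 1.11 and 0.87 relative to the shift.

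On the other side stood POLQ (log2 ratio -0.98), BRIP1 (-0.88), WRN (-0.84) and BARD1 (-0.65). Relative to the shift the first 3 passed 2-fold, at -1.22, -1.13 and -1.09, and BARD1 missed it at -0.90. POLQ (ENSG00000051341.9) lies on chromosome 3 at 121150278 to 121264853, BRIP1 (ENSG00000136492.4) on chromosome 17 at 59758627 to 59940882, and BARD1 (ENSG00000138376.6) on chromosome 2 at 215590370 to 215674428, all in hg19. Deposited bounds were apart for 21 of the 43 genes higher in PJ and for 11 lower, beside 15.1% and 7.01% of all symbols with 1 row. Most of those symbols are near 0, and among symbols with 1 row and an average of 1 FPKM or above the shares were 44.5% and 18.3%, so separate bounds are common at such levels.

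**Figure D3:**
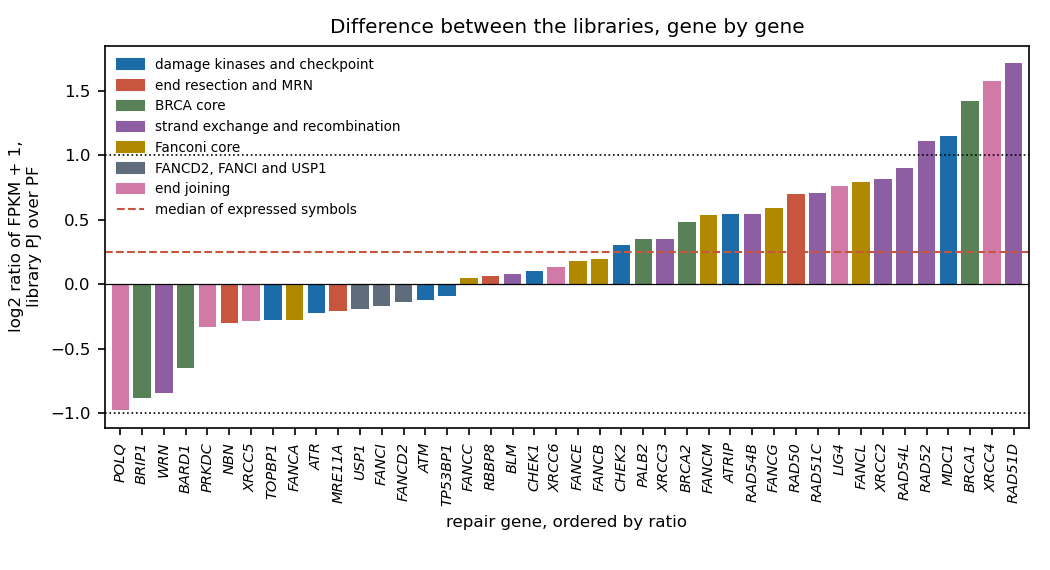
Log2 ratio of FPKM + 1, library PJ over PF, for the 42 repair genes averaging 1 FPKM or above, coloured by role, with dotted lines at 2-fold and a dashed line at the median shift of 0.25. RAD51D (1.72), XRCC4 (1.58), BRCA1 (1.42), MDC1 (1.15) and RAD52 (1.11) pass the upper dotted line, and POLQ (-0.98) comes nearest to the lower one.

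Part of the counts may be shared with neighbours, since 17 of the 43 genes overlap another row at 1 FPKM or more in at least 1 library, and the sources used here do not say that counting used strand. BRCA1 overlaps NBR2, a non-coding gene that shares its bidirectional promoter, at 1.96 FPKM in PJ and 0.941 in PF. BRCA1 also overlaps a pseudogene, CTD-3199J23.6, over 300 bp, at 5.34 in PJ and 8.23 in PF, and this pseudogene is marked as low data in both libraries. POLQ overlaps the pseudogene RPL7AP11 over 799 bp, at 38.0 FPKM in PJ and 34.9 in PF, levels well above those of POLQ itself. XRCC4 overlaps TMEM167A over 366 bp, which was higher in PJ as well, at 60.4 FPKM against 44.0 in PF. RAD52 overlaps ERC1 over 682 bp, at 7.90 in PJ and 8.74 in PF. RAD54L overlaps LRRC41 over 17278 bp, and that gene was also higher in PJ, at 18.6 FPKM against 10.9 in PF. FANCL shares 678 bp with VRK2, at 36.8 FPKM in PJ and 17.7 in PF. CHEK2 shares 392 bp with HSCB, at 21.5 FPKM in PJ and 8.89 in PF. XRCC3 shares 3943 bp with KLC1, which differed little, at 68.0 FPKM in PJ and 65.4 in PF. Not all of the 17 genes are named here. ATRIP shares 671 bp with the exonuclease gene TREX1, which was at 6.44 FPKM in PJ and 21.9 in PF, opposite in direction to ATRIP. The read-through gene RAD51L3-RFFL, which spans RAD51D, was at 0.228 FPKM in PJ and 0.126 in PF. How much of any difference came from shared fragments was not tested.

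Among the repair genes, the class with the shortest transcripts had the highest median ratio. Among the 14 repair genes whose longest coding transcript in GENCODE spans 1696 to 3293 bases, 10 exceeded the median shift and the median log2 ratio was 0.57. Of the 14 middle ones (3761 to 5499 bases) 3 exceeded it, with a median of -0.15, and of the 14 longest (6048 to 13509 bases) 6 did, with a median of -0.11. Spearman's rho between transcript length and log2 ratio was -0.35 across the 42 genes, which share both libraries and are not independent replicates. It was -0.17 across 11468 protein-coding symbols and -0.05 across 63 other repair genes. With the same length limits, the medians from short to long were 0.33, 0.19 and 0.08 for the protein-coding symbols. For the other repair genes they were 0.29, 0.53 and 0.32, so the short class was not the highest there. The part of length in the differences was not tested.

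The promoters of the 5 genes higher in PJ, of POLQ, BRIP1 and BARD1 and of FANCF are shown, because these genes are among those with the largest differences and FANCF has the lowest level. Sequences are from RefSeq on GRCh38.p14 and run 5′ to 3′ on the gene's strand, from 250 bases before the annotated start to 50 after it. Capitals mark matches on either strand to an E2F-like motif (TTCCCGC or TTGGCGC, the kind of site bound by the S-phase factors E2F), to the CHR element (TTTGAA) of cell cycle genes or to the CCAAT box (CCAAT).
RAD51D (chr17:35119709-35120008, minus strand): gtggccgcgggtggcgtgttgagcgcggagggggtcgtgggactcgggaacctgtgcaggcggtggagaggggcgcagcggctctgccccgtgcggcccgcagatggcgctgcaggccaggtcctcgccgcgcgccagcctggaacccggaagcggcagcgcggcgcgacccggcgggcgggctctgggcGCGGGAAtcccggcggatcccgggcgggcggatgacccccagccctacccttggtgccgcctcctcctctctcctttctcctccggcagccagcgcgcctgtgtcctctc
XRCC4 (chr5:83077297-83077596, plus strand): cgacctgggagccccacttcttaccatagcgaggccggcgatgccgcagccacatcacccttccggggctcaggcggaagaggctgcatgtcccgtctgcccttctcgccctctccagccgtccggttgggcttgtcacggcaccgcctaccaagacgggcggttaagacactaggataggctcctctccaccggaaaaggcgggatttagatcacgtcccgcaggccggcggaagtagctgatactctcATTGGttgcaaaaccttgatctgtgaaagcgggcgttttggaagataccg
BRCA1 (chr17:43125315-43125614, minus strand): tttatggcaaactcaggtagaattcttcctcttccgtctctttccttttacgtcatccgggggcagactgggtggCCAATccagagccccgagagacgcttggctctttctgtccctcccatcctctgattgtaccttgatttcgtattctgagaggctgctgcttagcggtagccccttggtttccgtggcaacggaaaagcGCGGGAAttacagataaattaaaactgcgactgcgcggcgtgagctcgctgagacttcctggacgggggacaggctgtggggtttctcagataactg
MDC1 (chr6:30717232-30717531, minus strand): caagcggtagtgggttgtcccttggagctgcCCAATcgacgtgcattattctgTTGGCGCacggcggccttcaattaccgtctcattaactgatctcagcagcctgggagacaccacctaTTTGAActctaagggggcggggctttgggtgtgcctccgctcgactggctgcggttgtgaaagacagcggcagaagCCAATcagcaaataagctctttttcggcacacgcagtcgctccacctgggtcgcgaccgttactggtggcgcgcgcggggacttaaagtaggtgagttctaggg
RAD52 (chr12:949645-949944, minus strand): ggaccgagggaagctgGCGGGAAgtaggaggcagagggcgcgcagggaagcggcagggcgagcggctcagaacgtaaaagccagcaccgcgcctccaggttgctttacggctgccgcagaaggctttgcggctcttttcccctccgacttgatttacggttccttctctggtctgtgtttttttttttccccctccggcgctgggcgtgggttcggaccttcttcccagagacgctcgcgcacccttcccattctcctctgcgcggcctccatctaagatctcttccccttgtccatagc
POLQ (chr3:121545939-121546238, minus strand): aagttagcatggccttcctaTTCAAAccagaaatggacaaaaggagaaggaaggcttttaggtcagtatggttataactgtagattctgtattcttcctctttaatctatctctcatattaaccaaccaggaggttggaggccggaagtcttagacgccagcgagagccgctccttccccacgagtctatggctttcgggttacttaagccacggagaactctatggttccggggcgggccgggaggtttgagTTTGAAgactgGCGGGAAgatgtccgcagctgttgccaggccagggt
BRIP1 (chr17:61863479-61863778, minus strand): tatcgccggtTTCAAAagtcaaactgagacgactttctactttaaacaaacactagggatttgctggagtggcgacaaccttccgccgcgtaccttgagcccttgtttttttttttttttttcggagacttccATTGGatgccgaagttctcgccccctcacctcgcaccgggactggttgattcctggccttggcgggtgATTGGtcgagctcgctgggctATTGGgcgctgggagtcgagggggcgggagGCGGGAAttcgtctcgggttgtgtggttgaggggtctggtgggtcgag
BARD1 (chr2:214809634-214809933, minus strand): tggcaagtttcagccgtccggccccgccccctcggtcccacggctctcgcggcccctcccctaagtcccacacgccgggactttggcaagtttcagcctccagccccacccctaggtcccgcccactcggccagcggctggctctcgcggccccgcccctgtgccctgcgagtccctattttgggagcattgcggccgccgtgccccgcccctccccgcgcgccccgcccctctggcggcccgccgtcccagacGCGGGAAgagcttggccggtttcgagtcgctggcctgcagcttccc
FANCF (chr11:22625774-22626073, minus strand): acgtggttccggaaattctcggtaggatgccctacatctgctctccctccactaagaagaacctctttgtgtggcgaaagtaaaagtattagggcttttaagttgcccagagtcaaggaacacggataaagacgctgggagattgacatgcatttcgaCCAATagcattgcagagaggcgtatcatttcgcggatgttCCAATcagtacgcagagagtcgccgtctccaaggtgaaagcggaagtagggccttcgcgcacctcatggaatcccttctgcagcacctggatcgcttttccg

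Of the 43 genes 37 matched an entry of the promoter table, and FANCI, NBN, PRKDC, RAD54B, WRN and XRCC5 did not. An E2F-like match was present in 20 of these 37 promoters, or 54.1%, against 9.15% of all 27305 promoters of the same length and 11.9% of the protein-coding ones. In 17 of them a match began within 100 bases of the start. The other repair genes held one in 19 of 56 promoters (33.9%), and a list of proliferation genes in 9 of 17 (52.9%). A CCAAT box was found in 54.1% of the 37, beside 35.6% of all promoters and 36.0% of the protein-coding ones. CHR was found in 10.8%, beside 15.6% of all promoters and 12.5% of the protein-coding ones. In 1 promoter, that of USP1, an E2F-like match and a CCAAT box overlapped, and 6 promoters held none of the motifs. The 37 promoters had a median GC content of 64.3%, against 62.7% for protein-coding ones, and the part of base composition was not tested.

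The E2F-like match did not separate the directions. It was present in 9 of 18 promoters of genes above the median shift and in 11 of 18 of those below it. Among the promoters printed above, RAD51D, BRCA1, MDC1 and RAD52 held 1 match each on the higher side and BARD1, BRIP1 and POLQ 1 each on the lower side, while XRCC4 and FANCF held none. A match is a stretch of letters and no evidence of binding.

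**Figure D4:**
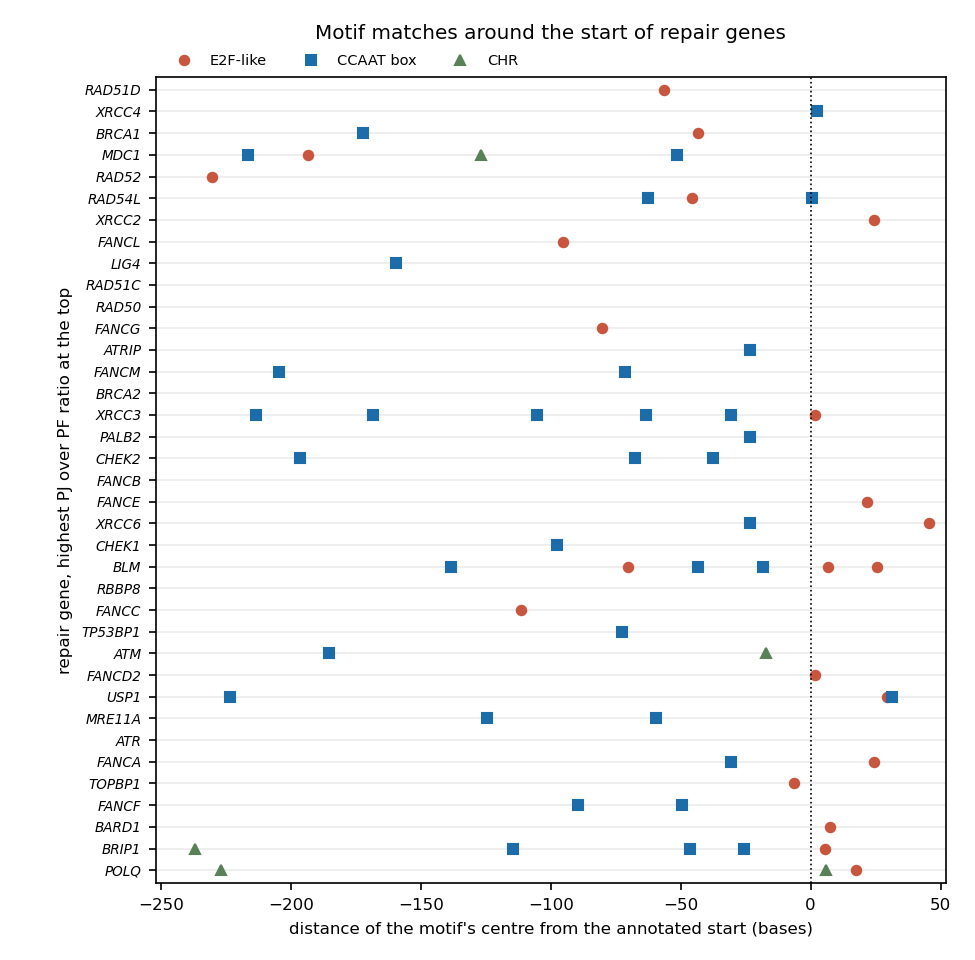
Position of motif matches (circles, E2F-like; squares, CCAAT box; triangles, CHR) relative to the annotated start, in bases, in 37 repair gene promoters ordered from the highest to the lowest ratio of PJ over PF. E2F-like matches occur from top to bottom, in 9 of 18 promoters of genes above the median shift and 11 of 18 of those below it.

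As deposited, the other repair genes, listed by function, held more genes higher in PJ than lower, as did the 43 genes and all symbols. Of 66 listed genes, 65 had a value in both libraries and 62 reached 1 FPKM in both. Of the 63 averaging 1 FPKM or above, 8 passed 2-fold on the higher side in PJ and 1 on the lower side. Relative to the shift the counts were 7 and 1, where the 42 genes above had 3 and 3. The same all-symbol background applies, 10.4% and 5.22% as deposited and 5.91% and 8.01% relative to the shift. The median log2 ratio was 0.34, and whether it differs from that of the 42 genes was not tested. The genes of both subunits of a junction-cutting nuclease were higher in PJ. MUS81 was at 21.5 FPKM in PJ and 7.28 in PF, and EME1 at 20.1 in PJ and 7.82 in PF. The EME1 estimate in PJ, 20.13, lay above its upper bound of 20.02. SWI5, of recombination, was at 26.4 FPKM in PJ and 9.76 in PF. The RecQ helicase gene RECQL5 was at 14.1 FPKM in PJ (12.5 to 15.8) and 4.94 in PF (3.997 to 11.1). Its PF interval was wide, with an upper bound close to the lower bound in PJ. RPA3, the small subunit of the single-strand binding complex, was at 74.0 FPKM in PJ and 28.6 in PF. TIPIN, of the fork protection complex, was at 54.8 FPKM in PJ and 22.7 in PF, and C19orf40, a FANCM partner, at 5.33 in PJ and 0.792 in PF. Both TIPIN estimates lay above their upper bounds, 50.8 in PJ and 21.5 in PF.

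The gene at least 2-fold lower was RECQL, a RecQ helicase gene like BLM and WRN, at 1.35 FPKM in PJ (0.9648 to 1.786) and 19.6 in PF (18.03 to 21.19), a log2 ratio of -3.13. RECQL4 was at 75.8 FPKM in PJ, above its upper bound of 73.8, and has no accepted estimate in PF, so it has no ratio. The highest of the other repair genes were H2AFX, whose histone is phosphorylated around breaks, at 188 FPKM in PJ and 257 in PF, STRA13 at 230 in PJ and 192 in PF, and SHFM1, whose product binds BRCA2, at 157 in PJ and 105 in PF. Both STRA13 estimates lay above their upper bounds, 181 in PJ and 147 in PF. APLF, an end-joining accessory gene, had the lowest mean of both libraries, at 0.496 FPKM in PJ and 0.177 in PF, and DMC1, a gene of meiotic recombination, was at 0.144 in PJ and 0.609 in PF.

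Lists of cell state moved differently between the libraries. None of 20 proliferation genes was 2-fold apart as deposited, with a median log2 ratio of -0.18, and 3 were 2-fold lower in PJ relative to the shift. Of 14 p53 targets 11 were at least 2-fold lower in PJ, both as deposited and relative to the shift, and the median log2 ratio was -1.17. Among them the cell cycle inhibitor gene CDKN1A was at 7.71 FPKM in PJ and 195 in PF. Over all symbols averaging 1 FPKM or above, 5.22% were 2-fold lower as deposited and 8.01% relative to the shift. In the epithelial list 2 of 6 genes averaging 1 FPKM or above were at least 2-fold lower in PJ, with a median log2 ratio of -0.56. CDH1, the gene of E-cadherin, was at 1.80 FPKM in PJ and 21.9 in PF. KRT8 was at 280 FPKM in PJ and 760 in PF, the latter below its lower bound of 764. The other 4 were less than 2-fold apart, and 1 of the 6, KRT19, was higher in PJ, at 325 FPKM against 306 in PF. The part of these lists in the repair gene values was not tested.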

How the data were processed

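Per the labels' protocols, RNA was extracted with TRIzol and paired-end libraries were made from total RNA with a TruSeq kit and run on a HiSeq. The submitters' processing notes name TopHat2 2.0.8b, TopHat and Cufflinks with hg19; the Cufflinks version and annotation were not given in the sources used here. For each library, the authors deposited FPKM per gene with 95% bounds and a status, per the file headers. Depth is unknown.

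Members and gene lists were chosen with earlier results of these data known. Status FAIL (20 rows in PJ, 23 in PF) was treated as missing, and rows of a symbol were summed. A pseudocount of 1 was added to FPKM before taking log2 ratios (PJ over PF), and 2-fold calls were limited to symbols averaging 1 FPKM or above. The median shift was computed without a pseudocount. Any member could be named; of other lists, the 3 highest, the lowest and those 2-fold apart. DMC1, RECQL4, the overlapping genes and the pairs set against each other were chosen after their values were seen. Transcript lengths came from GENCODE 29 by identifier, promoters from RefSeq. The code for counting 2-fold differences was tested on simulated data; the counts themselves were not tested. Thresholds, pseudocounts, filters and scalings were varied. Computations used Python 3.11.15, numpy 2.4.6 and pandas 2.3.3. Of the genes 2-fold apart in the other repair list, 1 is not reported here by name.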

Additional observations from a re-analysis of the deposited data

How the results depend on the processing

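The count of 42 expressed genes held at a threshold of 0.5 FPKM, in each library alone (42 in PF and 42 in PJ), with failed estimates kept as 0 and after rescaling to genes spanning 200 bp or more, and was 34 at 5 FPKM. The split of 5 genes higher and 0 lower became 3 and 3, with a median log2 ratio of -0.087, once the median shift was taken off, and 7 genes then changed sign, none of them 2-fold apart. A pseudocount of 0.1 gave 6 higher and 1 lower (POLQ), and rescaling gave 5 and 1. Genes lower with bounds apart numbered 17 when PJ was divided by the median ratio and 7 when only estimates within their own bounds were kept, against 11 as deposited; the counts on the higher side were 14 and 17 against 21. Bounds apart among genes averaging 1 FPKM or above, an alternative chosen after seeing the data, numbered 21 higher and 10 lower. No ratio can be formed without either library, so leaving one out applied to the expressed count only.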
